A study of Mus musculus with 30 samples.

Results

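Embryonic stem cells (ESC) of the mouse line E14 that were homozygous for Sp1ΔDBD, a deletion removing the DNA-binding domain of the transcription factor Sp1, were compared with the unmodified E14 WT ESC. This comparison used 4 of the 30 RNA-seq samples of the series, 2 for each genotype, and took in every gene of the expression table, 14685 genes, of which 14525 exceeded 1 FPKM (fragments per kilobase of transcript, scaled to the mapped total of the library) in at least 1 of the 30 samples and were tested. The other samples of the series were Sp3 knockout cells and, for all 3 genotypes, the Flk1+, HE1, HE2 and progenitor populations that arise from the ESC during differentiation towards blood. Neither ESC group carried any further allele or received a treatment named in the labels. The mutant was a single homozygous line and still made a truncated Sp1 protein that keeps the N-terminal part, so that an effect of the mutation and a difference between the lines cannot be told apart. The 2 samples of a group are described as biological replicates, and the cells had been grown with LIF on mouse embryonic fibroblast feeders, with a feeder-free step before differentiation.

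Sp1 is a zinc finger protein that binds GC boxes, short GC-rich motifs found in the promoters of many housekeeping and regulated genes, and it recruits the general transcription machinery through its glutamine-rich N-terminal domains. Sp3 is present in most cells and recognises the same motif through a nearly identical zinc finger domain, whereas Sp4 is best known from the nervous system. ESC are pluripotent, which means that they hold a network of factors such as Oct4 (Pou5f1), Sox2 and Nanog that keeps them undifferentiated.

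Levels of the pluripotency factors fitted the labelled cell type in all 4 samples. Pou5f1 measured 501 and 489 FPKM in WT and 450 and 410 FPKM in the mutant, and Nanog 121 and 130 FPKM in WT against 132 and 135 FPKM in the mutant. Sp1 mRNA itself was at 47.3 and 52.4 FPKM in WT and at 36 and 40.5 FPKM in the mutant, so both mutant samples were lower, but the log2 difference of -0.38 (SE 0.168) did not pass the test (adjusted p = 0.217 by limma). After a correction for GC content and transcript length the adjusted p of Sp1 was 0.0457. A value for the whole gene does not separate the deleted exons from the rest and therefore does not check the genotype. The expression values had been quantile normalised over all samples by the authors, the median gene stood at 7.19 FPKM in every sample, and no read numbers were given, so the depth is unknown. A value of 0 in the table can be a failed estimate, because Fdx1l, which encodes a mitochondrial ferredoxin, was listed at 0 in WT sample 1 and at 21.6 FPKM in WT sample 2.

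In the mutant ESC 880 of the 14525 genes differed from WT at an adjusted p below 0.05 (6.06% of those tested), 407 of them higher (2.80%) and 473 lower (3.26%). The test was limma on log2(FPKM + 0.1), with the spread of each gene estimated from all 30 samples and p-values adjusted after Benjamini and Hochberg over all genes tested. On that scale, which understates the change of low genes, the called genes had a median rise of 1.03 and a median fall of -1.13, and 116 of them changed by more than 4-fold, 40 upwards and 76 downwards. In all 880 genes both samples of one genotype lay above both of the other, an arrangement found in 45.2% of the genes tested. By size alone, a change of more than 2-fold in genes whose higher genotype averaged above 3 FPKM, 196 genes were up- and 225 down-regulated, together 2.87% of the table.

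These calls rest on the spread estimated from the other populations. A gene at or near 0 in those populations adds little spread there, so its SE can be too small for ESC. Gm21293, at or near 0 in all later samples, had 17.2 and 4.03 FPKM in WT ESC but an SE of 0.587. Its limma adjusted p was 3.74e-05, and 0.11 with the 6 ESC samples alone. When the 6 ESC samples were fitted alone 2 genes were called, Gatsl3 and Gm3002, and with the 4 samples alone none was, although 3115 and 2186 genes, respectively, had an unadjusted p below 0.05. For any 1 gene, the smallest two-sided p that an exact permutation test of 2 against 2 allows is 0.333. Of the 880 calls, 220 were kept in each of the 4 fits that left out 1 ESC sample, and the total fell to 415 without WT sample 2 and to 482 without mutant sample 1.

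**Figure D1:**
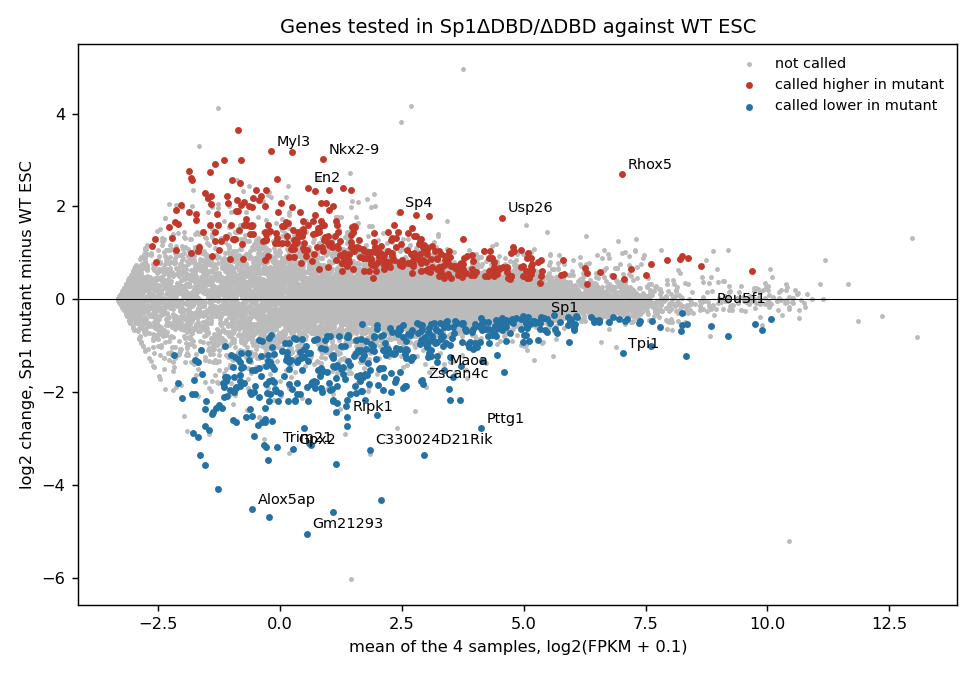
Each point is 1 of the 14525 genes tested, with the mean log2(FPKM + 0.1) of the 4 samples on the x axis and the log2 change of Sp1 mutant minus WT ESC on the y axis. The 407 genes called higher are red, the 473 called lower are blue, and the grey points, some with changes beyond 4 log2 units, were not called.

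Among the Sp family, Sp4 was the gene that passed this test. It measured 2.81 and 2.72 FPKM in WT and 8.67 and 12.4 FPKM in the mutant, a log2 rise of 1.87 (SE 0.229, limma adjusted p = 6.66e-05), and the Sp3 knockout ESC were at 2.05 and 2.32 FPKM. Both mutant samples were above every other ESC sample for this gene. Sp3 was at 40.2 and 42.7 FPKM in WT and at 37.5 and 49.3 FPKM in the mutant, and Sp2, which binds DNA differently from its relatives, at 3.99 and 7.72 FPKM in WT and 6.68 and 7.54 FPKM in the mutant. Neither passed the test (adjusted p = 0.947 and 0.587). Of 23 Sp and Klf genes tested 1, Sp4, was called, and the median log2 change of the list was 0.05 against 0.00 for all genes tested.

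Promoter sequences are shown for 5 of the called genes as examples with and without GC boxes. They were chosen after the expression values were seen, and are the 250 bases before the RefSeq start on GRCm38.p6, written 5′ to 3′ on the strand of the gene, with GGGCGG and its reverse complement in capitals. Sp4 and Smad6, an inhibitor of BMP signalling, were higher in the mutant. Maoa, the gene of monoamine oxidase A whose promoter is a textbook case of Sp1 binding, was lower, as were the long non-coding RNA C330024D21Rik and Zscan4c, a zinc finger gene of the 2-cell embryo.
Sp4 (chr12:118301441-118301690, minus strand): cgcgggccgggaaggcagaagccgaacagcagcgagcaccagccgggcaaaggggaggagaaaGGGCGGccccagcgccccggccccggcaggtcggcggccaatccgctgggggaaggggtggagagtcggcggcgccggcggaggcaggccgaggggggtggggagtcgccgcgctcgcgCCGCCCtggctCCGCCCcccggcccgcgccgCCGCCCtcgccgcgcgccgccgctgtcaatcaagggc
Smad6 (chr9:64022060-64022309, minus strand): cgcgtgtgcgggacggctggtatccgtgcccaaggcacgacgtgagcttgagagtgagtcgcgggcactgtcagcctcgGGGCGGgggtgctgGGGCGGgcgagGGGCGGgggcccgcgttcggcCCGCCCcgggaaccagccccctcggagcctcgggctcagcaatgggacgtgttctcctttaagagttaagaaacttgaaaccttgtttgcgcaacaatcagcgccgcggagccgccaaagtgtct
Maoa (chrX:16619448-16619697, plus strand): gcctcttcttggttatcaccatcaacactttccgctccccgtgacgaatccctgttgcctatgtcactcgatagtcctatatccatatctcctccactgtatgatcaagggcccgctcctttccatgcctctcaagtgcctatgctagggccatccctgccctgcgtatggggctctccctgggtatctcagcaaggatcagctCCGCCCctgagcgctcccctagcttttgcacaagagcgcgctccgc
C330024D21Rik (chr5:67463648-67463897, plus strand): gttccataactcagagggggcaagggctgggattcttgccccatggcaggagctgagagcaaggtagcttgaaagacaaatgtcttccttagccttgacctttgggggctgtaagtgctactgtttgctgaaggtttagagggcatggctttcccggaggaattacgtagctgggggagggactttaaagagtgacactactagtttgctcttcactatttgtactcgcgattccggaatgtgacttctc
Zscan4c (chr7:11005495-11005744, plus strand): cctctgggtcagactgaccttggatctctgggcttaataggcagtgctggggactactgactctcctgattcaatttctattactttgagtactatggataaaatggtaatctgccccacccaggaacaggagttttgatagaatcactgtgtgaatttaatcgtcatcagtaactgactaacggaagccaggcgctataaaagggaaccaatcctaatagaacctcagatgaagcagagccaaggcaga

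In these stretches the Sp4 promoter held 4 GC boxes, 1 on the strand of the gene and 3 on the other, the Smad6 promoter held 4, the Maoa promoter 1, and no match was found for C330024D21Rik or Zscan4c. Over all genes with exactly 1 promoter in the RefSeq table (61.9% of those tested) and a window from 250 bases before to 50 bases after the start, 69.5% of the promoters of genes called higher had at least 1 GC box (171 of 246, 95% Wilson interval 63.5 to 74.9%). The share was 66% for genes called lower (190 of 288, 60.3 to 71.2%) and 64.3% for all genes tested (5778 of 8990), and 35.7% of all promoters in the table held the motif. For at least 1 box, the intervals of both called groups include the share of all genes tested. Among genes tested with a mean above 1 FPKM in ESC this share was 68.1%. At least 3 boxes were found in 31.7% of the promoters of genes called higher (78 of 246) and in 23.3% of those called lower (67 of 288). The share was 21.4% for all genes tested (1928 of 8990) and 23% for those with a mean above 1 FPKM in ESC. No interval was computed for at least 3 boxes. The mean number of boxes was 1.89 for genes called higher, 1.5 for genes called lower and 1.46 for all. Transcripts of genes called higher were also richer in GC, with a median of 54% against 47.7% for genes called lower and 49.8% for all genes tested. A correction of the fit for GC content and length kept 755 of the 880 calls, and the part of GC content in the promoter shares was not tested.

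Of genes described in textbooks as driven by Sp1 through their promoters, 21 were tested, 2 were called lower and 2 higher, and the median change was 0.06. Maoa showed the clearest fall. Its WT samples were at 17.2 and 17.8 FPKM and its mutant samples at 5.54 and 6.43 FPKM (log2 change -1.53, SE 0.156, limma adjusted p = 1.32e-05), and the call was kept without any single sample. Tk1, the thymidine kinase of the nucleotide salvage pathway, was at 40.9 and 44.7 FPKM in WT and 23.1 and 27.5 FPKM in the mutant (-0.76, adjusted p = 8.66e-04). Tk1 lies on chromosome 11, whose median gene had a log2 change of -0.22. Cdkn1a, the cell cycle inhibitor p21, rose by 0.95 (adjusted p = 0.00628) and E2f1, a factor of S-phase entry, went from 3.36 and 6.45 FPKM to 9.66 and 9.2 FPKM (adjusted p = 0.0184). The call of Cdkn1a was lost without mutant sample 1 or WT sample 2. That of E2f1 was lost without mutant sample 1, mutant sample 2 or WT sample 1.

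No pluripotency gene passed the test, in which the SEs of the most abundant were wide (0.729 for Pou5f1 and 0.748 for Dppa5a on the log2 scale), so that differences of the size seen could hardly be called. These SEs take in later populations with values near 0, such as 9.30e-04 and 0.78 FPKM for Pou5f1 in mutant HE2. In ESC, Pou5f1 values were close within a genotype and did not overlap, at 501 and 489 FPKM in WT and 450 and 410 FPKM in the mutant. None of 20 general pluripotency genes, 21 naive pluripotency genes and 12 formative and primed pluripotency genes was called, and the list medians were 0.00, 0.05 and 0.07. The reporter of ground-state ESC Zfp42 (Rex1) measured 512 and 563 FPKM in WT and 398 and 455 FPKM in the mutant, a difference of -0.34 (SE 0.637), and Klf2 measured 53.5 and 34.4 FPKM against 68.5 and 52.4 FPKM. The groups overlapped for Klf2 and did not for Zfp42. Dppa5a, an RNA-binding protein of early embryonic cells, was at 1200 and 1100 FPKM in WT and 879 and 692 FPKM in the mutant (adjusted p = 0.79), and Tdgf1, the Nodal co-receptor Cripto, at 275 and 344 FPKM against 181 and 218 FPKM (adjusted p = 0.538). The summed level of the naive genes was 2380 and 2300 FPKM in WT and 2020 and 1850 FPKM in the mutant, without overlap. No gene of the primitive endoderm (14 tested), the trophectoderm (12) or the Wnt (31) and FGF (20) pathways was called. Of 17 primitive streak and Nodal pathway genes 1 was, the Nodal co-receptor Cfc1, at 0.788 and 0.475 FPKM in WT and 2.72 and 1.35 FPKM in the mutant (SE of the log2 change 0.383, adjusted p = 0.0238), a call lost without mutant sample 1 or WT sample 2. Lefty2, the member highest in WT, was at 70.9 and 60.3 FPKM in WT and 118 and 136 FPKM in the mutant. These groups did not overlap, but Lefty2 did not pass (log2 0.95, SE 0.527, limma adjusted p = 0.359). This SE takes in later samples far apart, such as 14.4 and 2.51 FPKM in mutant Flk1+ cells. With the 6 ESC samples alone its limma adjusted p was 0.0578, also not a call. The Sp3 knockout had 105 and 99.8 FPKM of Lefty2, and for Lefty1 the WT and mutant values overlapped.

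Genes of the 2-cell embryo were lower as a group. A small, changing fraction of cells in an ESC culture is known to switch these genes on, so a bulk level reflects both the number of such cells and the RNA in each, which cannot be told apart. Of 27 genes listed 13 were tested. Of these 13, 11 were called lower and none higher, against 3.26% of all genes. All 13 were below WT in both mutant samples, with a median change of -1.86. Zscan4a, Zscan4c, Gm5662 and Gm2022, at or near 0 in the later populations, passed the filter of 1 FPKM only through ESC samples, where WT was highest. Because of that filter, which favours falls, this count cannot show an enrichment. Zscan4c measured 11.8 and 17.3 FPKM in WT and 3.8 and 4.15 FPKM in the mutant (log2 -1.82, SE 0.253, adjusted p = 2.22e-04). It was at or near 0 in the later populations, so this SE can be too small. With the 6 ESC samples alone its limma adjusted p was 0.0642. Zscan4f, the highest member, was at 16.3 and 26.5 FPKM in WT and 6.24 and 6.6 FPKM in the mutant. WT sample 2 was above WT sample 1 in most members of the group, and the summed level of the 13 genes was 72.3 and 111 FPKM in WT against 24.2 FPKM in each mutant sample. The pair Gm5662 and Gm2022 fell by 1.86 and 2.19 on the log2 scale (adjusted p = 1.20e-04 and 4.68e-04). Their SEs can be too small for the same reason. With the 6 ESC samples alone their limma adjusted p was 0.0578 and 0.0816. The 2 members not called were Usp17lc (-1.18, adjusted p = 0.0502) and Arg2 (-2.16, adjusted p = 0.152). Without WT sample 2, 8 of the 11 calls remained.

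The Sp3 knockout ESC, measured against the same WT samples, were low as well, with Zscan4c at 4.48 and 3.53 FPKM and Zscan4f at 7.88 and 5.98 FPKM. Because the transcripts of the Zscan4 genes are 94.8 to 97.9% identical in the GENCODE annotation, reads can be shared among them and the members are not separate observations. The same holds for 4 of the large falls. Gm21293 stood at 17.2 and 4.03 FPKM in WT and 0.0104 and 0.495 FPKM in the mutant (log2 -5.05, adjusted p = 3.74e-05), and Gm6763, Gm8764 and Gm21304 fell by 4.57, 4.33 and 3.35. In the Sp3 knockout Gm21293 was low too, at 0.311 and 0.121 FPKM. These 4 genes lie side by side on chromosome 10, and their annotated transcripts of 1246 bases are 100% identical, so how reads were divided among them is uncertain.

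**Figure D2:**
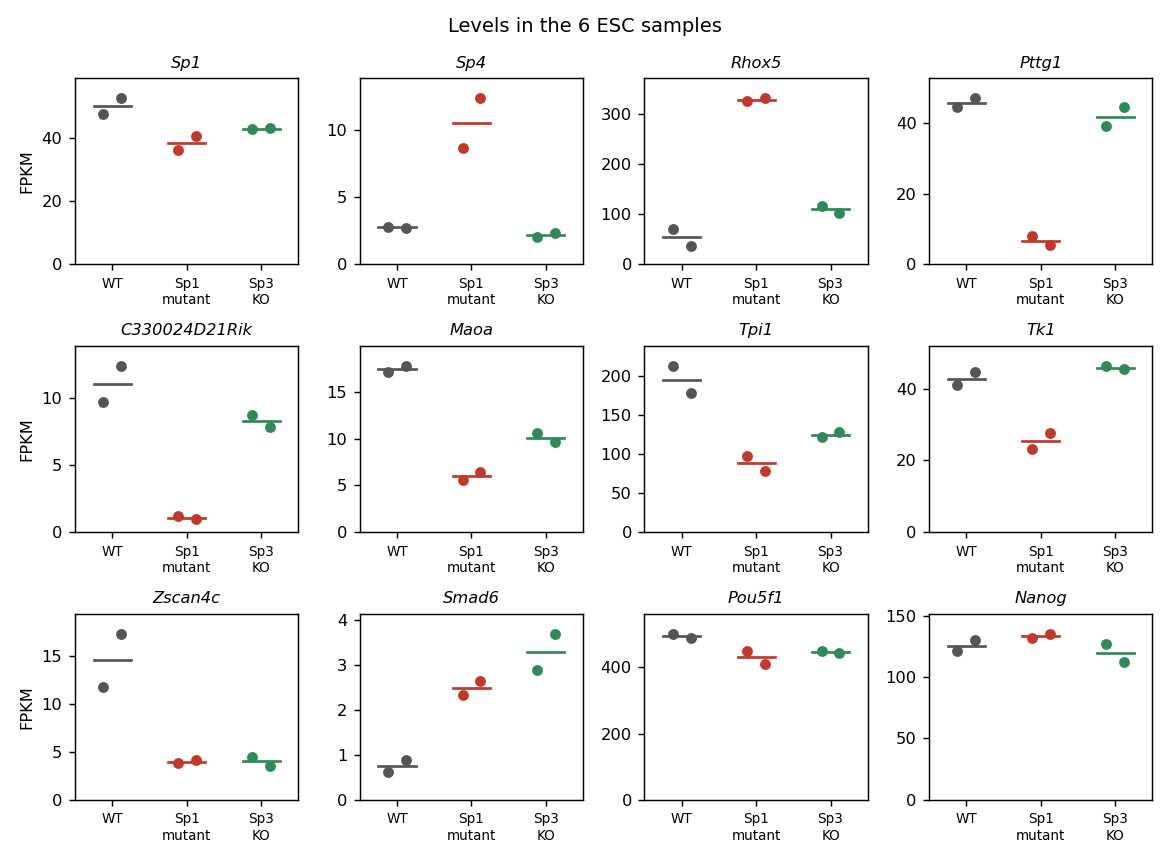
FPKM of 12 genes in the 6 ESC samples on linear axes from 0, with each dot a sample and the line the mean of 2. The WT and Sp1 mutant dots are apart for Sp4, Rhox5, Pttg1, C330024D21Rik, Maoa, Tpi1, Tk1, Zscan4c and Smad6, while Pou5f1 and Nanog differ by less than the test could call, and the Sp3 knockout dots show the second mutant beside the same WT samples.

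The other large falls among called genes that averaged above 3 FPKM in WT are given gene by gene. Pttg1, which encodes securin, the inhibitor of the protease that opens sister chromatid cohesion, dropped from 44.5 and 47.1 FPKM to 7.96 and 5.41 FPKM (log2 -2.78, SE 0.427, adjusted p = 4.68e-04), while the Sp3 knockout had 39.1 and 44.5 FPKM. C330024D21Rik dropped from 9.68 and 12.4 FPKM to 1.16 and 0.996 FPKM (-3.24, SE 0.333, adjusted p = 1.41e-05), and here too the Sp3 knockout stayed at 8.75 and 7.86 FPKM. Both genes separated the Sp1 mutant from all 4 other ESC samples. Gpx2, a selenium-dependent glutathione peroxidase, was at 3.58 FPKM in each WT sample and at 0.198 and 0.412 FPKM in the mutant (-3.23, adjusted p = 3.29e-05). Alox5ap, needed for leukotriene synthesis, was at 3.09 and 3.15 FPKM in WT, 0.0975 FPKM in mutant sample 1 and listed at 0 in mutant sample 2 (-4.52, adjusted p = 5.15e-06), and the Sp3 knockout, at 0.849 and 1.21 FPKM, was also called lower than WT (-1.53, adjusted p = 0.027). Ubash3a, a regulator of T cell receptor signalling, fell by 3.14, Pnma5 on the X chromosome by 3.54, and Gm12794 by 3.09. Gm12794 had 3.17 FPKM in WT sample 1 and 5.84 FPKM in WT sample 2, and was at or near 0 in the later populations. Zscan4c and Gm5662 had the same pattern, and whether these falls belong together was not tested. The Sp3 knockout was at 4.87 and 3.61 FPKM for Gpx2 and 2.43 and 3.66 FPKM for Ubash3a, but at 1.34 and 0.477 FPKM for Pnma5 and 2.52 and 0.626 FPKM for Gm12794, both called lower there as well (adjusted p = 0.00251 and 0.0203). Platr5, a non-coding RNA named for its expression in pluripotent cells, fell by 4.68 from 5.64 and 3.11 FPKM, and lost its call without mutant sample 2 (adjusted p = 0.00516 with all samples). It measured 0.834 and 0.983 FPKM in the Sp3 knockout (adjusted p = 0.173). Of the 12 largest falls among called genes averaging above 3 FPKM in WT, 10 kept the call without each sample in turn, Platr5 and Gm21304 being the exceptions.

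The 12 largest rises, among called genes that averaged above 3 FPKM in the mutant, began from low levels, with Rhox5 the exception. Rhox5, a homeobox gene of the X-linked reproductive cluster, rose from 69.7 and 36.9 FPKM in WT to 325 and 331 FPKM in the mutant (log2 2.69, SE 0.29, adjusted p = 1.93e-05), and the Sp3 knockout measured 116 and 103 FPKM. The Sp1 mutant samples were well above the range of the other 4, and the Sp3 knockout was also called higher than WT (log2 1.11, limma adjusted p = 0.0184). Its neighbour in the cluster, Rhox13, rose from 1.04 and 0.578 FPKM to 5.13 and 3.8 FPKM (2.36, adjusted p = 0.0021), whereas Rhox6 and Rhox9 were at 18.2 and 6.62 FPKM and at 14.6 and 6.49 FPKM in WT against 8.88 and 5.99 FPKM and 7.24 and 4.23 FPKM in the mutant, neither called. Of the homeobox genes of neural patterning, Nkx2-9 went from 0.523 and 0.567 FPKM to 7.26 and 3.62 FPKM (3.02, adjusted p = 0.00132) and En2 from 0.421 and 0.709 FPKM to 2.77 and 3.98 FPKM (2.40, adjusted p = 0.00353). Both were also above WT in the Sp3 knockout, with Nkx2-9 at 6.16 and 5.8 FPKM and En2 at 2.43 and 1.34 FPKM. Serpina3m, a serine protease inhibitor, rose by 3.17, the testis gene Tsga10 by 2.33, Tmub1, a membrane protein with a ubiquitin-like domain, by 2.39, and the non-coding RNA 4930404N11Rik by 2.02. In the Sp3 knockout, Tmub1 was at 3.51 and 3.57 FPKM and 4930404N11Rik at 6.13 and 8.05 FPKM. Both were called higher than WT there too (log2 1.77 and 2.77, limma adjusted p = 7.05e-04 and 4.23e-05). Serpina3m and Tsga10 were not called in the Sp3 knockout (limma adjusted p = 0.29 and 0.999). Myl3, a myosin light chain of heart and slow muscle, rose by 3.19 but its mutant samples were far apart at 7.44 and 0.843 FPKM. The calls of Myl3, Tspan8, a tetraspanin, and Kcnn1, a calcium-activated potassium channel, were lost without mutant sample 1 or WT sample 2, and that of Bgn, the matrix proteoglycan biglycan, without mutant sample 2 or WT sample 1.

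Markers of fibroblasts, the feeder cells of the culture, lay mostly above WT, beside Bgn and the secreted BMP antagonist Grem1, both called higher (Grem1 0.105 and 0.512 FPKM in WT, 1.2 and 1.75 FPKM in the mutant, adjusted p = 0.0233). Of 17 fibroblast markers tested 14 lay above WT, against 48.8% of all genes, and none was called, with a median change of 0.82, and their summed level was 62.2 and 33.5 FPKM in WT and 82.8 and 74.1 FPKM in the mutant. Col1a2 was at 1.18 and 1.6 FPKM in WT and 5.2 and 7.34 FPKM in the mutant, Col3a1 at 0.279 and 0.0285 FPKM against 1.45 and 1.03 FPKM, whereas Thy1 was lower in both mutant samples and Mmp2 overlapped. The Grem1 call was lost without mutant sample 1, mutant sample 2 or WT sample 1. The part of feeder cells in the rise of Bgn and Grem1 was not tested. Besides Grem1, 1 of 23 BMP and Id genes was called, Smad6, at 0.62 and 0.892 FPKM in WT and 2.33 and 2.64 FPKM in the mutant (1.61, adjusted p = 8.62e-04), and the Sp3 knockout had 2.88 and 3.68 FPKM.

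Of 29 germline genes tested 5 were called higher and none lower, against 2.80% of all genes, and 22 lay above WT, against 48.8% of all genes, with a median of 0.67. The 5 were Rhox5, Rhox13, Usp26, a deubiquitinase of the testis on the X chromosome (13.8 and 11.6 FPKM in WT, 38.8 and 47.7 FPKM in the mutant, adjusted p = 0.0424), Slc25a31, the germ cell ADP/ATP carrier (1.40, adjusted p = 0.0262) and Tdrd1, a Tudor protein of the piRNA pathway (1.24, adjusted p = 0.0336). Calls for Usp26, Slc25a31 and Tdrd1 were lost when any of the 4 samples was left out. In the Sp3 knockout ESC Usp26 went the other way, at 2.31 and 1.58 FPKM, and was called lower than WT (log2 -2.66, limma adjusted p = 0.00214). The germ cell helicase Ddx4, at 5.22 FPKM in each WT sample and 10.3 and 11.9 FPKM in the mutant, did not pass (adjusted p = 0.233).

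Blood and endothelial genes were low in ESC of either genotype, with 15 of 20 below 1 FPKM in all 4 samples. Those 15 were tested only because they exceeded 1 FPKM in samples outside these 4. Of the 20, 4 were called higher and none lower, against 2.80% of all genes called higher. Because of that filter and the low levels, this count cannot show an enrichment. With the 6 ESC samples alone none of the 4 was called. In all, 14 lay above WT and 6 below, and the summed level of the list, 25.3 and 22.4 FPKM in WT against 24.8 and 20.1 FPKM in the mutant, was not higher in the mutant. Etv2, the factor that starts the haemangioblast programme, was at 0.86 and 0.287 FPKM in WT and 2.67 and 1.25 FPKM in the mutant (1.67, adjusted p = 0.0349). Tal1 was at 0.138 and 0.525 FPKM against 0.966 and 1.15 FPKM, Lmo2 at 0.13 and 0.234 FPKM against 0.504 and 0.631 FPKM, and Fli1 at 0.024 and 0.011 FPKM against 0.662 and 0.158 FPKM. None of the 4 reached 3 FPKM, and the call of Tal1 was lost without mutant sample 2 or WT sample 1, that of Etv2 without mutant sample 1 or WT sample 2. Runx1, the master regulator of definitive blood formation, was at 0.0847 to 0.203 FPKM in the 4 samples and did not pass the test (adjusted p = 0.913). Of 5 neural genes tested, Map2, a dendritic microtubule protein, was called lower (-1.69, adjusted p = 0.00393), though not without mutant sample 1 or WT sample 2.

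**Figure D3:**
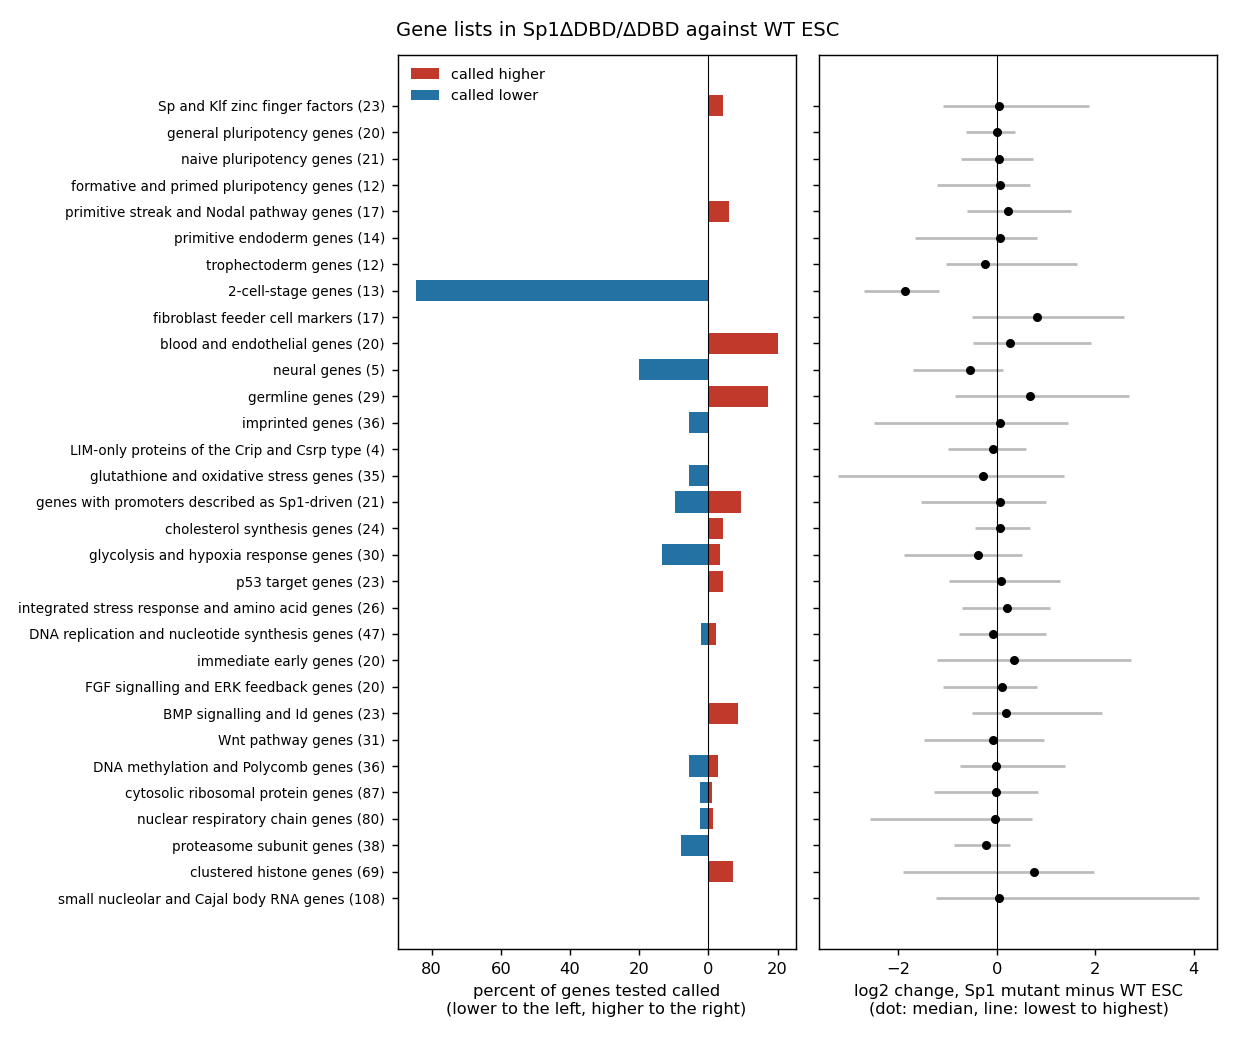
For each gene list, with the number of genes tested in brackets, the left panel gives the percentage called lower (blue, to the left) and higher (red, to the right) in Sp1 mutant ESC, and the right panel the median log2 change (dot) and the lowest to highest member (line). The 2-cell-stage genes stand alone with 11 of 13 called lower, while the pluripotency lists hold no called gene.

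Of 30 glycolysis and hypoxia response genes tested 4 were called lower and 1 higher, against 3.26% and 2.80% of all genes. In all, 23 of the 30 lay below WT, against 51.1% of all genes, and the median change was -0.39. Their summed level was 5510 and 5340 FPKM in WT and 4550 and 4400 FPKM in the mutant. The Sp3 knockout was below the same WT samples too, at 4450 and 4560 FPKM. Tpi1, triosephosphate isomerase, had 213 and 178 FPKM in WT and 97.6 and 78.3 FPKM in the mutant (-1.16, SE 0.123, adjusted p = 1.82e-05), and its call was kept without any single sample. Ldha, the lactate dehydrogenase subunit of anaerobic glycolysis, was at 558 FPKM in each WT sample and at 402 and 346 FPKM in the mutant (-0.58, adjusted p = 0.00897). Aldoc (-1.59) and the liver phosphofructokinase Pfkl (-0.72) were called lower and the muscle form Pfkm (0.52) higher. The enzymes around them were not called, with Gapdh at 531 and 512 FPKM against 489 and 501 FPKM and Eno1 at 834 and 870 FPKM in both genotypes. Ldha lost its call without mutant sample 2 or WT sample 2 and Pfkl without mutant sample 2 or WT sample 1, while Aldoc, which lies on chromosome 11, and Pfkm lost theirs without 3 of the 4 samples.

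Proteasome subunit genes lay below WT in 34 of 38 cases, against 51.1% of all genes, with a median of -0.21. Their summed level was 4290 and 4280 FPKM in WT and 3830 and 3650 FPKM in the mutant. The Sp3 knockout was below WT too, at 3720 and 3810 FPKM. The 3 called lower, against 3.26% of all genes, were Psmd12, Psma2 and Psmc5 (-0.49, -0.46 and -0.42). None of these calls was kept in every fit without 1 sample, and after the GC and length correction Psmd12 was still called while Psma2 (adjusted p = 0.13) and Psmc5 (adjusted p = 0.0851) were not. Psmd12 and Psmc5 lie on chromosome 11, as do the ribosomal protein genes called lower, Rpl23 (1010 and 1070 FPKM in WT, 677 and 758 FPKM in the mutant, adjusted p = 0.00278) and Rps27a (-0.42). Measured from the median of their chromosome, none of the 3 called ribosomal genes and 1 of the 3 proteasome genes was still called. Rpl23, Rps27a and Psmd12 were also called lower in the Sp3 knockout ESC, while Psma2 and Psmc5 were not (limma). The third ribosomal call in the Sp1 mutant was Rplp2 (0.61), which was called higher in the Sp3 knockout as well (limma). The other 84 of 87 cytosolic ribosomal protein genes were not called in the Sp1 mutant, with a list median of -0.01. Of 80 nuclear respiratory chain genes Atp5d (0.68) rose and Uqcrc2 (-0.46) and Ndufa4l2 (-2.57) fell, and none of these 3 calls was kept in every fit without 1 sample.

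Clustered histone genes lay above WT in 64 of 69 cases, against 48.8% of all genes (median 0.76). The 5 called higher, against 2.80% of all genes, were H2B genes, among them Hist1h2bg with 331 and 177 FPKM in WT and 506 and 406 FPKM in the mutant (0.90, adjusted p = 0.0361). The first sample of each genotype was above the second, and the summed histone level was 11200 and 7310 FPKM in WT against 15200 and 10900 FPKM in the mutant, so that WT sample 1 and mutant sample 2 were close. The Sp3 knockout, beside the same WT samples, had a still higher sum of 29500 and 27300 FPKM. None of the 5 calls remained without mutant sample 1 or WT sample 2, and the GC and length correction ended those of Hist1h2bk (adjusted p = 0.059) and Hist1h2bl (adjusted p = 0.0823). Summed small nucleolar and Cajal body RNA followed the sample number in WT (5430 and 3530 FPKM) and in the Sp1 mutant (5730 and 3590 FPKM). In the Sp3 knockout the order was reversed, at 4860 and 5850 FPKM. None of the 108 genes was called in the Sp1 mutant.

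Among the remaining lists the calls were few. Of 35 glutathione and oxidative stress genes Gpx2 and the quinone reductase Nqo1 (11.1 and 16.5 FPKM in WT, 2.45 and 6.16 FPKM in the mutant, adjusted p = 0.0157) were lower, and of 36 imprinted genes Nnat (-2.50) and, on chromosome 11, Zrsr1 (-1.10). The Polycomb genes Rnf2 (-0.50) and Pcgf5 (-0.74) were lower and Ring1, the paralogue of Rnf2 in the same complex, was higher, from 1.68 and 1.5 FPKM to 5.03 and 3.75 FPKM (1.39, adjusted p = 0.00486), out of 36 DNA methylation and Polycomb genes. Of 47 replication genes Tk1 was lower and E2f1 higher. Srebf2 (0.68, adjusted p = 0.0272) was the 1 call among 24 cholesterol synthesis genes and Cdkn1a that among 23 p53 target genes. No gene was called among 26 of the integrated stress response, 20 immediate early genes and 4 LIM-only genes of the Crip and Csrp type. The heparin-binding growth factor Mdk was at 72.1 and 50.3 FPKM in WT and 72.1 and 41.5 FPKM in the mutant, and Crip1, a LIM-only protein, at 48.3 and 38.4 FPKM against 27.3 and 17.2 FPKM (-0.99, SE 0.954, adjusted p = 0.669). Both mutant values of Crip1 lay below both WT values, and the paper reports a Crip1 difference already in ESC. The SE of Crip1 takes in later samples far apart, such as 4.37 and 0.00816 FPKM in mutant progenitors. No mitochondrially encoded gene was in the table. Of the calls in these lists Gpx2 and Tk1 were kept without any single sample, and the others were lost without mutant sample 1.

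Genes of chromosome 11 were lower across the whole chromosome. Its 959 genes with a mean above 1 FPKM in the 4 samples had a median log2 change of -0.22, and the 4 possible pairs of a mutant with a WT sample gave -0.24 to -0.20. On the other 19 chromosomes examined the medians lay between -0.06 and 0.09. Of all 14525 genes tested, 1205 lay on chromosome 11 (8.3%), but it held 100 of the 473 genes called lower (21.1%) and 10 of those called higher. In windows of 10 Mb the median was below 0 in all 13, from -0.50 to -0.10, the lowest from 14 genes. The Sp3 knockout, set against the same WT samples, had a median of -0.19 on chromosome 11. There chromosome 11 was not the lowest, because the other medians ran from -0.20 on X to 0.10 on chromosome 7. In the later populations, each with WT samples of its own, the Sp1 mutant had chromosome 11 medians of -0.14 in Flk1+ cells, -0.31 in HE1, -0.32 in HE2 and -0.35 in progenitors. With chromosome 11 set aside 753 of the 880 calls stood, and 722 stood when each change was taken from the median of its chromosome.

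**Figure D4:**
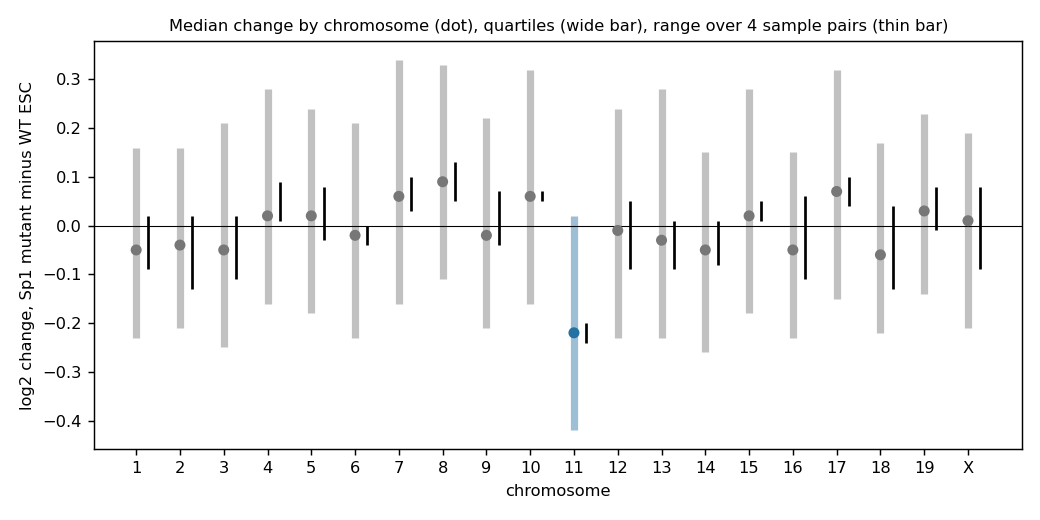
Log2 change of Sp1 mutant minus WT ESC by chromosome for genes with a mean above 1 FPKM, with the median as a dot, the quartiles as a wide bar and the range of the median over the 4 mutant and WT sample pairs as a thin bar. Chromosome 11 (blue) has its median at -0.22 and a pair range from -0.24 to -0.20, below the range of medians of the others.

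Many of the ESC differences were seen again in the 4 later populations, where mutant and WT were sampled separately. Of the 407 genes called higher in ESC, 317 were above WT in Flk1+ cells (77.9%, against 52.8% of all genes tested) and 65 of them were called there (16%, against 2.92% of all genes). In HE1, HE2 and progenitors 18.2%, 21.4% and 17% were called higher, against 5.69%, 4.70% and 3.75% of all genes. Of the 473 genes called lower in ESC, 18.4% were called lower in Flk1+ cells, 20.7% in HE1, 30.2% in HE2 and 21.8% in progenitors, against 2.62%, 4.35%, 4.97% and 5.04% of all genes. Calls in the opposite direction numbered 4 to 10 in each direction and population. The spread of each gene was shared by all these fits, and all mutant samples descend from 1 line.

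In all 5 populations 59 genes were called in the same direction, 25 higher and 34 lower, 7 of the latter on chromosome 11. They were picked out by these calls, so their values are a description. Sp4 was at 0.972 to 3.16 FPKM in the 8 later WT samples and at 8.23 to 12.8 FPKM in the 8 later mutant samples. Rhox5 was at 0.643 to 4.57 FPKM in the later WT samples and 22.4 to 73.7 FPKM in the mutant, and Usp26 at 0.0855 to 1.11 FPKM against 4.17 to 23.5 FPKM. Each of these 3 had mutant samples above every WT sample of the same population. In WT, both X-linked genes were at higher FPKM in ESC than in any later sample, and the log2 difference between mutant and WT was 1.76 in ESC and 4.91 in progenitors for Usp26.

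Of the genes lower throughout, Pttg1 was at 43.1 to 84.8 FPKM in the later WT samples and at 4.91 to 30 FPKM in the mutant, the highest mutant value being sample 2 of Flk1+ cells. C330024D21Rik was at 6.81 to 15.3 FPKM against 0.38 to 1.79 FPKM. Ripk1, the kinase that relays TNF receptor signals to survival or death, was at 4.69 and 7.9 FPKM in WT ESC and 0.81 and 1.17 FPKM in mutant ESC (log2 -2.53, SE 0.24, adjusted p = 5.15e-06), and the antibody receptor and ubiquitin ligase Trim21 at 2.83 and 2.74 FPKM against 0.127 and 0.349 FPKM (-3.18, adjusted p = 5.15e-06). Both were named after their values were seen, and both were below WT in all later populations, with log2 changes of -1.97 to -1.54 and -3.44 to -2.06. In the Sp3 knockout ESC they measured 3 and 2.99 FPKM and 1.11 and 1.36 FPKM, and both were called lower than WT there too (limma adjusted p = 0.0113 and 0.0204).

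**Figure D5:**
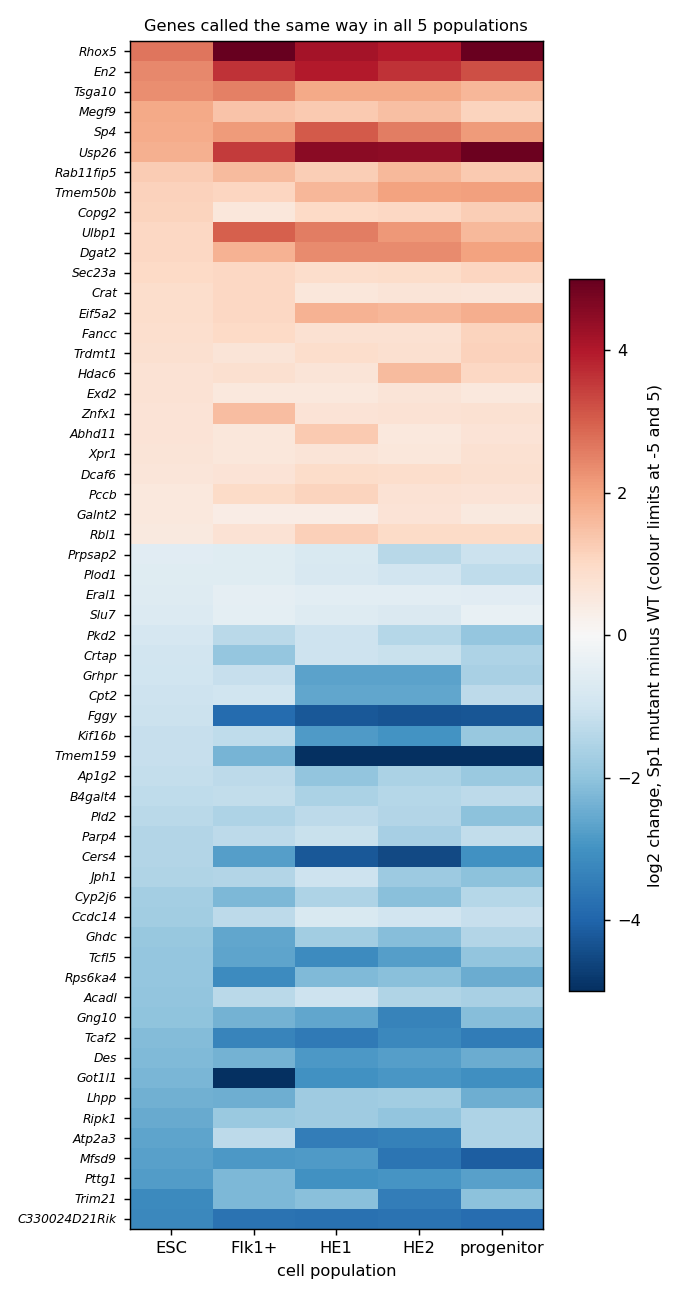
Log2 change of Sp1 mutant minus WT in the 5 populations (columns) for the 59 genes called in the same direction in all of them (rows, ordered by the change in ESC), with red for higher and blue for lower and colours that end at -5 and 5. Rhox5, Usp26 and En2 hold the strongest reds and C330024D21Rik, Tmem159 and Fggy are among the strongest blues of the later populations.

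For 253 of the 14525 genes (1.74%) the effect in Flk1+ cells differed from that in ESC by a test of the difference itself. Most of those named here were genes switched off in Flk1+ cells of both genotypes, such as Gm21293, Gpx2 and Zscan4c, whose levels there were at or near 0. Where a gene was also near 0 in the other later populations, the SE of this difference can be too small. Cdkn1a was expressed in both and went opposite ways, up by 0.95 in ESC and down by -1.18 in Flk1+ cells, a difference of -2.13 (SE 0.278, limma adjusted p = 6.89e-04). Maoa was lower in both, by -1.53 and -0.70, and the 2 effects were not shown to differ (adjusted p = 0.0621).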

How the data were processed

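RNA-seq libraries were made from ribosome-depleted total RNA with a stranded kit, 2 for each of 3 genotypes in 5 populations. Per the labels and the methods, the authors trimmed reads, used HISAT2 2.1.0 for alignment (mm10) and StringTie 1.3.3 for FPKM values. The deposited FPKM table holds 14685 genes and was quantile normalised by the authors, so that a shift of all genes at once cannot be seen. Depth is not given in the sources used here, and the number of samples limits the precision.

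Values were analysed as log2(FPKM + 0.1), the pseudocount of the study. Genes above 1 FPKM in at least 1 sample (14525) were fitted with limma using 15 group means over the 30 samples, with an intensity trend, 15 residual and 3.92 prior degrees of freedom, and p-values were adjusted after Benjamini and Hochberg. The scripts were tested on simulated data. Gene positions came from GENCODE M21 (GRCm38), with 14370 genes matched by symbol and 189 by an older symbol, and promoters from RefSeq (GRCm38.p6).

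Genes named were Sp1 to Sp4, Mdk, Crip1 and Klf2, the 12 largest rises and the 12 largest falls among called genes that averaged above 3 FPKM in the higher genotype and whose groups did not overlap, and in each gene list up to 4 called members with the smallest p, or the 2 highest members where fewer than 2 were called. Others were chosen after their values were seen. The comparison, its gene lists and the genes described were chosen with earlier results of these data known. Leaving out chromosome 11 and measuring from the chromosome median were alternatives chosen after seeing the data.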

Additional observations from a re-analysis of the deposited data

Results flagged for a closer look

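The effect of the Sp1 mutation in Flk1+ cells minus that in ESC passed the limma test for 22 of the genes named. The values are log2 differences of effects, Flk1+ minus ESC.

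Positive values, a fall in ESC that was smaller, absent or opposite in Flk1+ cells, were found for Gm21293 (5.05), Platr5 (6.53), Gm6763 (4.57), Alox5ap (3.89), Gm8764 (4.33), Pnma5 (3.54), Gpx2 (3.02), Gm12794 (3.09) and the 2-cell-stage genes Gm5662 (1.86), Zscan4c (1.67), Zscan4a (1.91) and Gm2022 (2.19). None of these 12 exceeded 0.564 FPKM in any WT or mutant Flk1+ sample, so an effect there could hardly be measured. Rhox5 also had a positive value (2.33), with a rise of 2.69 in ESC and of 5.02 in Flk1+ cells. Ldha (0.82, adjusted p = 0.0241) and the proteasome subunit Psmc5 (0.67, adjusted p = 0.0375) were lower in mutant ESC and had log2 changes of 0.24 and 0.25 in Flk1+ cells, where they reached 1130 and 105 FPKM.

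Negative values, a rise in ESC that was smaller or opposite in Flk1+ cells, were found for Serpina3m (-3.23) and Nkx2-9 (-3.02), which were at or near 0 in Flk1+ cells, and for Bgn (-2.94), 4930404N11Rik (-1.85) and Smad6 (-1.78), which reached 1.46, 5.93 and 25.4 FPKM there. Cfc1, the Nodal co-receptor, rose in ESC and had a log2 change of -2.12 in Flk1+ cells, where it reached 108 FPKM (difference -3.62, SE 0.541, adjusted p = 0.00222). Cdkn1a likewise went from 0.95 to -1.18 (difference -2.13, adjusted p = 6.89e-04).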

How the results depend on the processing

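The count of 880 genes (407 higher, 473 lower) was 2 (0 higher, 2 lower) with the 6 ESC samples alone and 0 with the 4 samples alone, where fewer samples give the spread, and it ranged from 415 to 669 (176 to 317 higher, 239 to 352 lower) without 1 ESC sample. The fold rule, 196 higher and 225 lower, gave 110 higher with a pseudocount of 1, 547 and 584 with no minimum mean, 57 and 108 when all 4 pairs had to exceed a fold of 2, and 189 to 362 higher and 254 to 311 lower without 1 sample. Genes whose effect differed between Flk1+ cells and ESC numbered 253, 407 with a pseudocount of 1 and 134 to 292 without 1 ESC sample (134 without WT sample 2, 158 without mutant sample 1). Genes called alike in ESC and Flk1+ cells numbered 152, 262 with the replicate block and GC and length correction together, and 93 to 117 without 1 sample. The chromosome 11 median of -0.22 was -0.25 under the GC and length correction with and without the block, -0.20 with a pseudocount of 1 and -0.24 to -0.20 without 1 sample. The share of promoters with a GC box was 61.3 to 70.2% for genes higher and 61.9 to 69.5% for genes lower without 1 sample. No named value changed sign under any alternative that kept or made a call. Leaving out the intensity trend, testing all genes or a higher minimum left 892, 901 and 849 calls, and the GC and length correction 1038.

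The samples share replicate numbers across genotypes but no stated pairing. Same-numbered WT and mutant samples deviated together (r = 0.464 over 11458 genes), and a replicate block raised the count to 1062, with 828 of the 880 calls kept. The causes of these changes were not tested.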
